A study of Drosophila melanogaster with 10 samples.

Results

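The comparison of PARIS C571A with TRAP control covered 6 of the 10 samples of a TRAP-seq experiment on fly dopaminergic (DA) neurons, and its members were all 17716 genes with a FlyBase identifier in the table that holds both groups. All 6 libraries came from heads of *Drosophila melanogaster* in which dTH-GAL4, a driver active in DA neurons, switched on UAS-GFP::RpL10A, so that ribosome-bound mRNA could be pulled down with an antibody to GFP. PARIS C571A flies, with the genotype label dTH+TRAP(hPARIS C571A), also carried human PARIS (hPARIS, ZNF746) in the C571A form, in which a cysteine is replaced by alanine, and TRAP control flies, dTH+TRAP(GFP-RpL10a), carried the tagged ribosomal protein without hPARIS. Each group had 3 libraries, labelled as independent biological samples, each from 500 pooled heads of male and female flies of strain w1118XdTH-Gal4. The labels give an age of 30 days and the methods a collection 2 days after eclosion, and this difference could not be settled here. One more group, PARIS WT (wild-type hPARIS in the same background, 3 libraries of 1500 heads each), is used below only to set the mutant beside it.

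PARIS is a KRAB zinc-finger protein that represses transcription, and in mammals it is broken down with the help of parkin, the ubiquitin ligase mutated in familial Parkinson's disease. The C571A substitution lies in the zinc-finger region and is used as a transcriptionally inactive form of the protein. TRAP-seq reads out mRNA bound to tagged ribosomes, so its values combine how much of an mRNA is present with how much of it is on ribosomes in the tagged cells. RNA that sticks to the beads from other cells of the tissue is also counted. In fly DA neurons ple (tyrosine hydroxylase) and Ddc (dopa decarboxylase) make dopamine, Vmat loads it into vesicles and DAT takes it up again.

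The libraries held 12261043 to 50102982 counts on genes in PARIS C571A and 11173874 to 21737687 in TRAP control. A single transcript, mt:ATPase6 of the mitochondrial genome, took 52.7% and 53.6% of the counts of PARIS C571A replicates 1 and 3, 0% of replicate 2, and 19.2% to 38.8% of the TRAP control libraries, so PARIS C571A replicate 2 stood apart in this respect. Ribosomal RNA took 15.4% to 33.1% in PARIS C571A and 25.1% to 35.4% in TRAP control. Across genes, libraries correlated at 0.737 to 0.766 within PARIS C571A, at 0.675 to 0.702 within TRAP control and at 0.657 to 0.712 between the groups. Levels below are CPM (counts scaled to a common library size with edgeR's TMM factors), and differences are log2 fold changes of PARIS C571A over TRAP control. A gene is said to have risen or fallen where its adjusted p was under 0.05 in edgeR's quasi-likelihood test with Benjamini-Hochberg adjustment over 9986 tested genes.

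The tagged cells' own markers were present but uneven. The sum of ple, Ddc, Vmat and DAT was 395 ± 59.0 CPM in PARIS C571A and 425 ± 79.8 CPM in TRAP control (SD, n = 3 each). ple read 71.3, 64.2 and 74.2 CPM in PARIS C571A and 50.3, 0 and 35.8 CPM in TRAP control, so TRAP control replicate 2 held no count of the gene that defines these neurons. DAT was at 0 in PARIS C571A replicates 1 and 2 and in TRAP control replicates 2 and 3, did not pass the filter on low counts, and had other counts in a second deposited table, described below. Ddc read 139, 152 and 168 CPM in PARIS C571A and 134, 106 and 149 CPM in TRAP control, with overlapping groups. Vmat was counted in every library without overlap between the groups, as 161, 134 and 169 CPM in PARIS C571A lay below 220, 228 and 269 CPM in TRAP control (log2 fold change -0.63 ± 0.14 SE, edgeR adjusted p = 0.199). None of the 3 tested markers passed the edgeR test, while DESeq2, an alternative test, called 1 of them lower, against 2.75% of all genes it tested. RpL10Ab, the fly gene of the tagged ribosomal protein, read 855, 835 and 922 CPM in PARIS C571A and 896, 923 and 1063 CPM in TRAP control. The hPARIS transgene is not a fly gene and was not analysed here.

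Few genes passed the test. Of 9986 genes, 2 rose (0.0200%) and 15 fell (0.150%) in PARIS C571A, and the median log2 fold change over all tested genes was 0.006. At an unadjusted p under 0.05, 451 genes were higher (4.52%) and 531 lower (5.32%), and DESeq2, the tool of the study's methods, called 135 higher (1.22%) and 304 lower (2.75%) of 11070. Every PARIS C571A library lay above every TRAP control library for 995 genes (9.96%) and below for 1061 (10.6%). With simulated libraries of the same depths and spread, the edgeR test recovered 10.5% of genes set to a log2 fold change of 2 when each gene kept its own dispersion, with no false call. Of the 15 genes that fell, 7 did so with no count in any PARIS C571A library. These 7 are treated apart, because the same PARIS C571A libraries hold 131 to 16981 counts for them in another deposited table. The remaining 10 called genes (both that rose and 8 that fell) have the same counts in both tables.

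The gene that rose with counts in every library was e (ebony, the enzyme that joins beta-alanine to dopamine and other amines, on chromosome 3R:21229839-21237177). It read 45.8, 46.4 and 39.6 CPM in PARIS C571A and 10.97, 8.01 and 9.18 CPM in TRAP control, and the lowest PARIS C571A library was far above the highest TRAP control library. The means were 43.9 ± 3.75 and 9.38 ± 1.49 CPM (SD, n = 3 each), 4.68-fold apart (log2 fold change 2.23 ± 0.20 SE, edgeR adjusted p = 0.0221). Its call was kept in 1 of 6 fits that each left out a library, the one without TRAP control replicate 1, and the adjusted p over those fits was 0.0444 to 0.114.

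The second gene that rose, lncRNA:CR45939 on chromosome 3L, is a long non-coding RNA with no count in TRAP control. Its counts were 745, 594 and 1138 in PARIS C571A and 0, 0 and 0 in TRAP control, at least 168-fold higher against a floor of 3 counts per library (edgeR adjusted p = 0.0130). Counts also swung between libraries of the same group: in PARIS WT the lncRNA had 775, 0 and 0. It lies within ftz-f1, a nuclear receptor gene on the same strand, whose own counts were 1241, 940 and 1452 in PARIS C571A and 1825, 1989 and 838 in TRAP control. How the counting split reads between the 2 genes was not tested. The call was lost in each fit that left out a PARIS C571A library and kept in each that left out a TRAP control library (adjusted p 0.0144 to 0.127).

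The next genes by p-value in the upward direction did not pass the test. All 8 had PARIS C571A libraries above every TRAP control library, as 9.96% of all tested genes did. A choice by p-value favours such genes, so this separation is no further evidence. Scp2 (a sarcoplasmic calcium-binding protein) read 68.1, 63.9 and 59.9 CPM in PARIS C571A and 21.5, 28.7 and 20.2 CPM in TRAP control (log2 fold change 1.45, adjusted p = 0.0664). nrv2 (a beta subunit of the sodium-potassium pump, strong in fly glia) read 71.2, 74.01 and 78.4 CPM in PARIS C571A and 35.9, 30.4 and 39.3 CPM in TRAP control (1.08 ± 0.15 SE, adjusted p = 0.0870). The others were CG8736 (3.23), TotA (Turandot A, a secreted stress peptide, 1.58), Gk1 (glycerol kinase, 1.70) and Xport-A (a chaperone for rhodopsin and TRP channels in photoreceptors, 0.71), with edgeR adjusted p of 0.0664, 0.137, 0.146 and 0.151 in that order. Ttc30 (a gene of ciliary transport) had 132, 136 and 184 counts in PARIS C571A and none in TRAP control (at least 31.7-fold higher, edgeR adjusted p = 0.146). CG13026 had 184, 97 and 154 counts in PARIS C571A and none in TRAP control (at least 30.6-fold higher, edgeR adjusted p = 0.151). In PARIS WT the counts were 0, 81 and 0 for Ttc30 and 73, 50 and 97 for CG13026.

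Among the genes that fell with counts in every library, 4 kept the call when the second table's PARIS C571A counts were used. Cyp4g1 (the P450 of oenocytes that completes the synthesis of cuticular hydrocarbons, chromosome X:467057-469335) read 16.5, 17.9 and 18.3 CPM in PARIS C571A and 70.0, 76.4 and 65.8 CPM in TRAP control. The libraries of each group lay close together, and the group means were 4.02-fold apart (log2 fold change -2.01 ± 0.15 SE, edgeR adjusted p = 0.0130). S-Lap1 (sperm leucyl aminopeptidase 1, chromosome 3L:8617235-8619474) read 36.3, 42.2 and 45.4 CPM in PARIS C571A and 142, 139 and 133 CPM in TRAP control (-1.74 ± 0.13 SE, adjusted p = 0.0130). Mur18B (a mucin-related gene, chromosome X:19213254-19214938) read 29.8, 38.1 and 25.1 CPM in PARIS C571A and 167, 197 and 246 CPM in TRAP control (-2.71 ± 0.23 SE, adjusted p = 0.0173). In none of these genes did a PARIS C571A library come near the lowest TRAP control library. The fourth, CG4836 (chromosome 3R:20013872-20018248), read 44.2, 33.3 and 44.7 CPM in PARIS C571A and 139, 149 and 160 CPM in TRAP control (-1.87, adjusted p = 0.0173). When single libraries were left out, the calls of Cyp4g1 and S-Lap1 were kept only without TRAP control replicate 1, that of CG4836 only without PARIS C571A replicate 2, and that of Mur18B without either of these. The adjusted p over the 6 fits was 0.0391 to 0.101 for Cyp4g1, 0.0457 to 0.101 for S-Lap1, 0.0348 to 0.111 for Mur18B and 0.0470 to 0.103 for CG4836.

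The other 4 genes that fell with counts in every library included a second mucin and a second sperm gene. Muc11A (a mucin gene on chromosome X) read 7.76, 10.7 and 9.07 CPM in PARIS C571A and 46.6, 36.8 and 46.1 CPM in TRAP control (log2 fold change -2.23, edgeR adjusted p = 0.0287). It overlaps Ten-a on the same strand, so reads of these genes may have been split by the counting. dj (don juan, a sperm tail protein) read 4.99, 5.24 and 5.07 CPM in PARIS C571A and 21.0, 31.2 and 25.6 CPM in TRAP control (-2.35, adjusted p = 0.0408). Msp300 (a nesprin, a giant protein that ties nuclei to the cytoskeleton) read 3246, 3539 and 3053 CPM in PARIS C571A and 6125, 5727 and 5681 CPM in TRAP control (-0.83, adjusted p = 0.0462). The 28S rRNA pseudogene 28SrRNA-Psi:CR45859 read 2892, 2948 and 3063 CPM in PARIS C571A and 5411, 4939 and 5316 CPM in TRAP control (-0.82, adjusted p = 0.0329); it shares sequence with the rRNA genes, so its count is uncertain. Leaving out any single library ended the calls of Muc11A, Msp300, dj and 28SrRNA-Psi:CR45859, and the adjusted p of these genes over the 6 fits ranged from 0.0630 to 0.286. With the 477 tested genes whose counts differ between tables removed, dj (adjusted p = 0.0529) and Msp300 (0.0566) also missed the threshold.

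**Figure D1:**
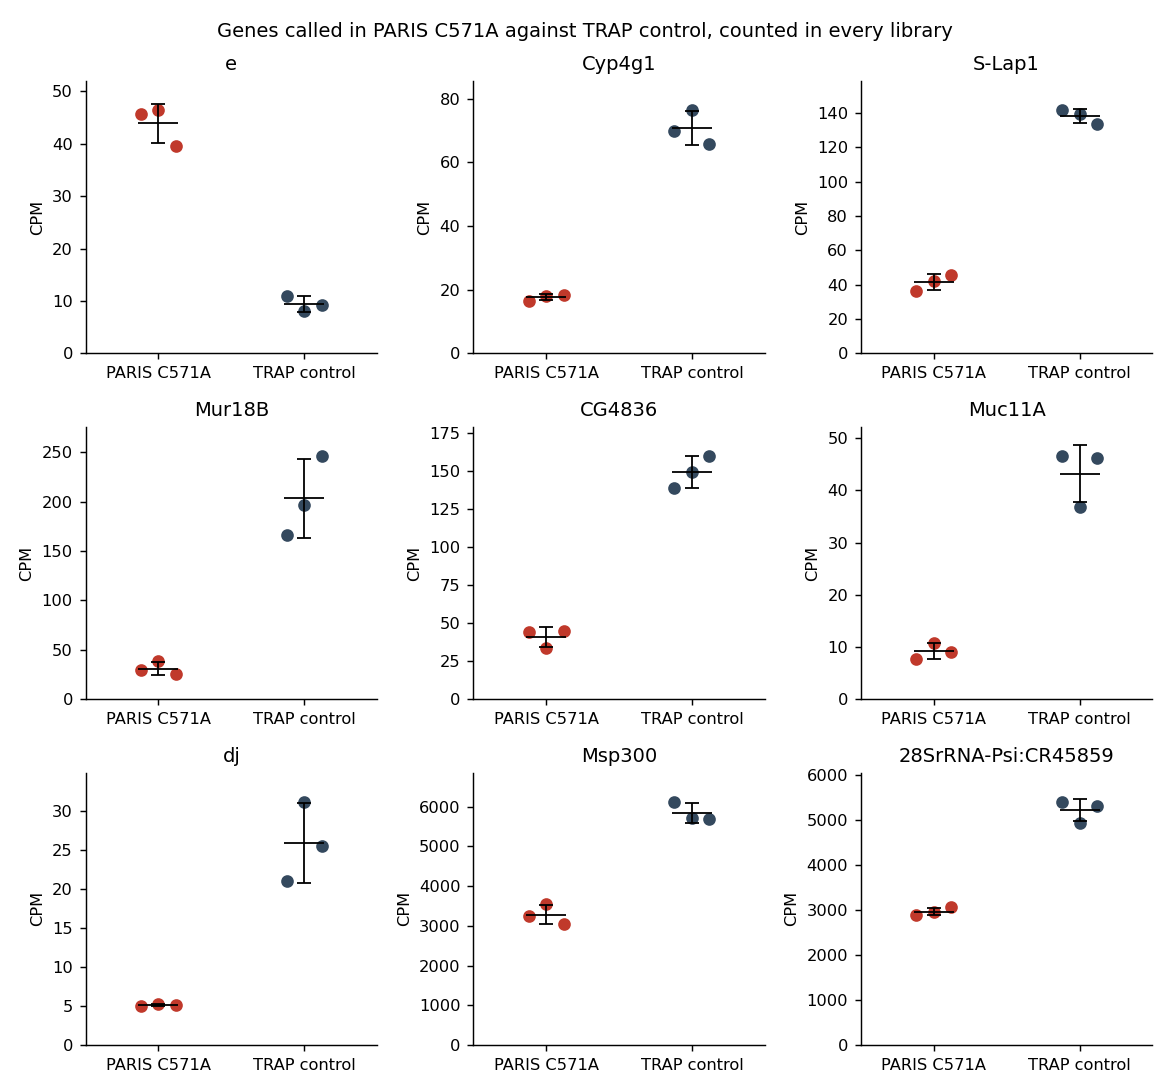
CPM in each library of the 9 genes that passed the edgeR test and were counted in every library, with PARIS C571A to the left of TRAP control in each panel; points are libraries and bars are means with SD (n = 3). In all 9 panels the groups do not overlap: e is higher in PARIS C571A and the other 8 genes are lower.

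The 250 bases before the annotated start are shown for 3 of the called genes, e, Cyp4g1 and Mur18B, and for nrv2, which did not pass the test and is shown for its match, because human PARIS is known to act through promoters that hold an insulin response sequence. Both strands were searched for TATTTTT, a form of that sequence, and a match is in capitals. The sequences are from Release 6 of the fly genome (BDGP6), written 5' to 3' on the strand of the gene.
e, chr3R:21237178-21237427, minus strand: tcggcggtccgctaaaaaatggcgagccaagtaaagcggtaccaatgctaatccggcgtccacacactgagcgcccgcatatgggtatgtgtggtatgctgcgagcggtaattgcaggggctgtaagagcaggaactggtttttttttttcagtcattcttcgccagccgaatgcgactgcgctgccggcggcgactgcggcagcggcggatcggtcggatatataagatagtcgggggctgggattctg
nrv2, chr2L:6798863-6799112, minus strand: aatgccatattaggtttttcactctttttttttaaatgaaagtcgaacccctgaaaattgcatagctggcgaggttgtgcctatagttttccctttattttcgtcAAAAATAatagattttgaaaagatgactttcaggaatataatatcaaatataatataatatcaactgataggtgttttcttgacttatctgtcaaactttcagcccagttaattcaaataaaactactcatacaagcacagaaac
Cyp4g1, chrX:469336-469585, minus strand: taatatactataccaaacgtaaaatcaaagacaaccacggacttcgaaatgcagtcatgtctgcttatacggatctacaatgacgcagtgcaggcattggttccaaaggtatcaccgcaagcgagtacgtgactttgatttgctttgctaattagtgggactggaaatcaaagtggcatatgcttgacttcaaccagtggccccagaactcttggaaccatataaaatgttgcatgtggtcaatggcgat
Mur18B, chrX:19213004-19213253, plus strand: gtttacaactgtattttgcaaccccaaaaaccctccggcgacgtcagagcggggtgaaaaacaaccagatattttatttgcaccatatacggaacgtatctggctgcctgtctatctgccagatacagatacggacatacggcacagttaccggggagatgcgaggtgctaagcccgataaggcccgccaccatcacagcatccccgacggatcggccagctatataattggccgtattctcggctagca
Of the 4 windows that of nrv2 held the motif, once, as AAAAATA on the gene's strand. The windows of S-Lap1 and CG4836, not printed, held none. The window of Cyp4g1 lies in CG32816 but in none of its exons. None of the 8 called protein-coding genes with the same counts in both tables held a match, while 31.6% of all 9542 tested protein-coding genes did. The share was 27.7% of 433 genes higher and 28.03% of 503 genes lower at an unadjusted p under 0.05, and 21.9% (7 of 32) in the testis and sperm list below. A match is a string of letters and was not tested as a binding site. The study reports a longer motif from ChIP-seq of human cells, with a higher binding affinity for PARIS than the motif searched here. That longer motif was not searched for, so the lack of a match covers the older motif alone.

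The 7 genes that fell with no count in PARIS C571A were RpLP1 and RpL24 (proteins of the large ribosomal subunit), Rab2 (a small GTPase of the Golgi), pnut (a septin), MCTS1 (a factor for translation re-initiation), b (black, which makes beta-alanine) and CG2247. RpLP1 had 0, 0 and 0 counts in PARIS C571A and 7178, 7329 and 6027 in TRAP control, and RpL24 0, 0 and 0 in PARIS C571A and 6402, 7561 and 5875 in TRAP control. Against a floor of 3 counts per library these were at least 3438-fold and at least 3320-fold lower in PARIS C571A (edgeR adjusted p = 0.00165 for both). Rab2, pnut, CG2247 and MCTS1 were at least 471-fold, 259-fold, 154-fold and 137-fold lower, with adjusted p of 0.0130, 0.0173, 0.0326 and 0.0326 in that order. b was at 0 in PARIS C571A against 272, 358 and 367 counts in TRAP control (adjusted p = 0.0361). The calls of RpLP1 and RpL24 were kept whichever library was left out, that of Rab2 without any 1 PARIS C571A library, that of pnut only without PARIS C571A replicate 2, and those of the others in none of the 6 fits.

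A second deposited table, of PARIS C571A and PARIS WT, holds the same 3 PARIS C571A libraries with other counts for these genes. There RpLP1 had 8920, 8327 and 15875 counts, RpL24 9078, 8245 and 16981, Rab2 911, 899 and 1632, and pnut 903, 605 and 988 in the PARIS C571A libraries. MCTS1 had 162, 349 and 518 counts, CG2247 131, 169 and 253, and b 1968, 1420 and 2835. With these counts set against TRAP control in the same test, none of the 7 genes passed: the log2 fold change was 0.08 for RpL24, 0.04 for pnut and 1.91 for b (adjusted p = 0.117 for b), so the direction of these 3 turned. Of 17691 genes shared by the tables, 668 had another PARIS C571A count in at least 1 library. In the table used here 43 genes had at least 20 counts in each TRAP control library and 0 in every PARIS C571A library. Of these, 12 had at least 20 counts in each of the same libraries in the second table and 28 were at 0 there too. The reverse pattern, 0 in every TRAP control library and at least 20 counts in each PARIS C571A library, was seen for 23 genes, of which lncRNA:CR45939 passed the test. The second table has no TRAP control column, so zeros of TRAP control could not be checked in this way.

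**Figure D2:**
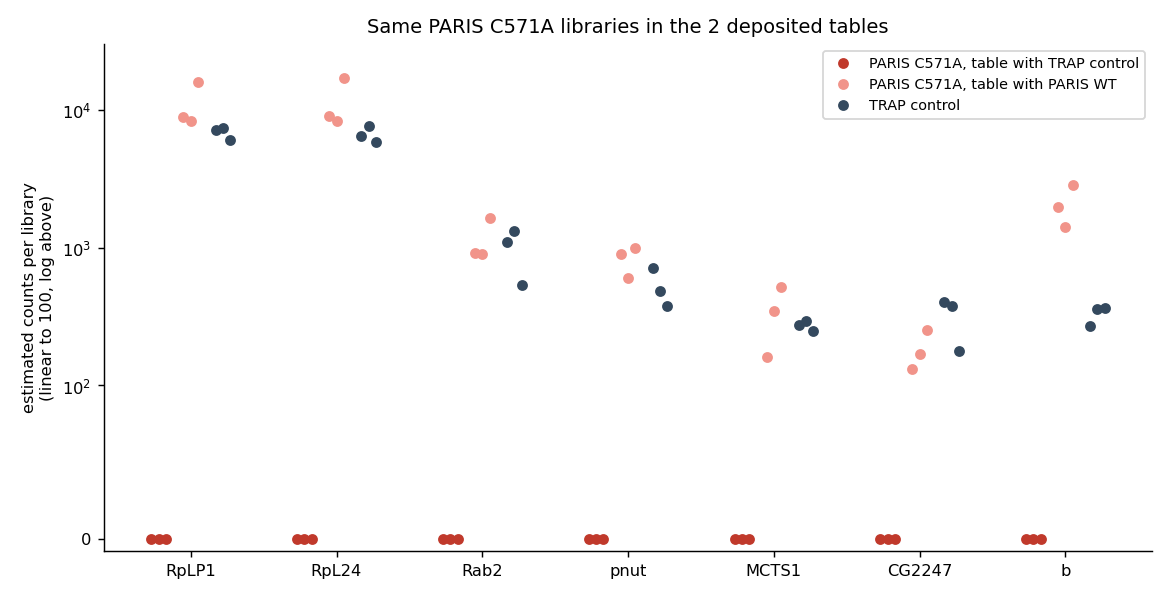
Counts of the 7 genes that are at 0 in every PARIS C571A library of the table shared with TRAP control: PARIS C571A in that table, the same PARIS C571A libraries in the table shared with PARIS WT, and TRAP control. Points are libraries (n = 3). The first column is 0 for every gene and the second lies between 131 and 16981 counts.

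Genes of the male germ line and of the gut lay lower in PARIS C571A. The list of testis and sperm genes had 41 members in the table, of which 2 had no count at all. Of the 39 others, with no filter applied, 38 had a lower mean CPM in PARIS C571A and 1 a higher one, where 52.2% of all genes with a count had a lower mean. The test was run on the 32 members that passed the filter on low counts, 3 of which reached its minimum in every TRAP control library but not in every PARIS C571A library. Their median log2 fold change was -1.75, and 2 of them fell (S-Lap1 and dj), against 0.150% of all tested genes. At an unadjusted p under 0.05, 18 of the 32 were lower, against 5.32% of all tested genes. In 22 of the 32 every PARIS C571A library lay below every TRAP control library, against 10.6% over all tested genes. DESeq2 called 13 of 35 members lower, against 2.75% of all genes it tested. The summed level of the list was 186, 216 and 218 CPM in PARIS C571A and 618, 698 and 653 CPM in TRAP control, with means 3.18-fold apart. Members near the threshold were S-Lap8 (15.6, 12.2 and 10.8 CPM in PARIS C571A and 41.2, 45.1 and 41.9 CPM in TRAP control, log2 fold change -1.73, edgeR adjusted p = 0.0517) and S-Lap2 (17.9, 15.2 and 20.5 CPM in PARIS C571A and 47.4, 48.9 and 61.1 CPM in TRAP control, -1.56, adjusted p = 0.0664). Both encode leucyl aminopeptidases of sperm, like S-Lap1. Mst98Cb, a sperm tail gene, read 2.21, 1.70 and 1.93 CPM in PARIS C571A and 9.13, 16.0 and 9.93 CPM in TRAP control (-2.58, adjusted p = 0.151). These organs are not part of the head, and how their RNA came into the head libraries was not tested. In such bulk libraries, less material from a cell type cannot be told apart from less RNA per cell. When each library was left out in turn, 15 to 19 members were lower at an unadjusted p under 0.05, none higher, and the median over the 33 to 35 members then tested lay between -1.74 and -1.57.

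The accessory gland and seminal fluid list, secreted proteins that males pass to females in mating, had the same direction at lower levels. Of 51 members 43 had a count. With no filter applied 39 of these had a lower mean CPM in PARIS C571A and 4 a higher one. Of all genes with a count 52.2% had a lower mean. The filter on low counts passed 20, of which 11 reached its minimum in every TRAP control library but not in every PARIS C571A library, so that a lower value was built into their selection. Among the 20, 4 were lower at an unadjusted p under 0.05, against 5.32% of all tested genes, and none passed the edgeR test. DESeq2 called 3 of 23 members lower, against 2.75% of all genes it tested. The list summed to 13.4, 7.66 and 25.0 CPM in PARIS C571A and 75.1, 64.4 and 66.4 CPM in TRAP control. Acp54A1 read 0.161, 0.388 and 0.0805 CPM in PARIS C571A and 5.64, 2.95 and 4.21 CPM in TRAP control (log2 fold change -4.33, edgeR adjusted p = 0.199), and Dup99B, a relative of the sex peptide, 1.17, 0.873 and 1.18 CPM in PARIS C571A and 5.54, 5.26 and 6.543 CPM in TRAP control (-2.42, adjusted p = 0.207). A further male-linked group, the paralogs of respiratory chain and TCA cycle genes (many of them used in testis), had a lower mean CPM in PARIS C571A for 21 of 23 members with a count, and sums of 18.1, 17.7 and 13.4 CPM in PARIS C571A and 44.4, 41.7 and 44.5 CPM in TRAP control. Scsalpha2 (a subunit of succinyl-CoA synthetase) read 2.01, 1.26 and 1.503 CPM in PARIS C571A and 5.59, 7.66 and 4.81 CPM in TRAP control (-1.92, adjusted p = 0.327). The libraries pooled males and females, which according to the methods were collected in equal numbers for every group.

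The gut list of digestive proteases and sugar-cleaving enzymes also lay lower. Of 38 members 32 had a count. With no filter applied 29 of these had a lower mean CPM in PARIS C571A and 3 a higher one. Of all genes with a count 52.2% had a lower mean. The filter on low counts passed 13, of which 2 reached its minimum in every TRAP control library but not in every PARIS C571A library and 1 the other way round. Among the 13, 7 were lower at an unadjusted p under 0.05 with no overlap between the groups, and none passed the edgeR test. Of all tested genes 5.32% were lower, and 10.6% had every PARIS C571A library below every TRAP control library. DESeq2 called 5 of 20 members lower, against 2.75% of all genes it tested. The list summed to 31.5, 36.6 and 33.9 CPM in PARIS C571A and 98.0, 116 and 138 CPM in TRAP control, 3.45-fold apart in the mean. yip7, a trypsin-like protease, read 4.91, 7.71 and 4.43 CPM in PARIS C571A and 18.1, 16.8 and 29.3 CPM in TRAP control (log2 fold change -1.91, edgeR adjusted p = 0.188). Jon99Cii, of the Jonah proteases, read 1.21, 1.46 and 0.832 CPM in PARIS C571A and 6.91, 5.65 and 9.03 CPM in TRAP control (-2.62, adjusted p = 0.199). alphaTry, a trypsin, read 8.53, 1.07 and 7.60 CPM in PARIS C571A and 26.5, 19.5 and 37.3 CPM in TRAP control (-2.27, adjusted p = 0.386).

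Genes of oenocytes and of the cuticle epidermis did not share one direction. FASN2, a fatty acid synthase of oenocytes, read 7.44, 6.84 and 9.53 CPM in PARIS C571A and 30.5, 34.9 and 49.3 CPM in TRAP control (log2 fold change -2.27 ± 0.27 SE, edgeR adjusted p = 0.0531). Cyp6g1, a P450 known for insecticide resistance, read 47.4, 50.9 and 46.1 CPM in PARIS C571A and 78.5, 64.7 and 81.0 CPM in TRAP control (-0.63, adjusted p = 0.199). Desat1, the fatty acid desaturase that dominates the list, went the other way, with 838, 829 and 832 CPM in PARIS C571A and 596, 608 and 446 CPM in TRAP control (0.60, adjusted p = 0.204). Over 5 members the median was -2.01 (-1.28 without TRAP control replicate 2), and 1 fell (Cyp4g1). At an unadjusted p under 0.05, 3 were lower and 1 was higher, against 5.32% and 4.52% of all genes.

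Detoxification enzymes had members in both directions, with more glutathione S-transferases lower than higher. Of 67 tested P450 genes 31 lay above 0 and 36 below, where 49.5% of all genes lay below, and 1 fell (Cyp4g1). At an unadjusted p under 0.05 in edgeR, 7 were lower and none higher, against 5.32% and 4.52% of all genes. Every PARIS C571A library lay below every TRAP control library for 12 P450 genes and above for 3, against 10.6% and 9.96% of all genes. The list summed to 1012, 1091 and 1038 CPM in PARIS C571A and 1201, 1181 and 1296 CPM in TRAP control. The median was -0.09, and 0.18 without TRAP control replicate 3. As single libraries were left out, 4 to 9 were lower and 0 to 2 higher. Cyp9b2 read 30.9, 32.5 and 31.7 CPM in PARIS C571A and 63.1, 53.9 and 56.0 CPM in TRAP control (log2 fold change -0.86, edgeR adjusted p = 0.146). Cyp6a2, a P450 induced by many foreign compounds, read 34.9, 46.5 and 33.0 CPM in PARIS C571A and 54.3, 64.2 and 78.6 CPM in TRAP control (-0.78, adjusted p = 0.277). Of 30 tested glutathione S-transferases 9 lay above 0 and 21 below. Their median was -0.28, and -0.27 to -0.14 as single libraries were left out. At an unadjusted p under 0.05, 4 were lower and 1 higher, and 1 was lower without TRAP control replicate 2 or 3. GstE1 read 42.3, 44.1 and 40.6 CPM in PARIS C571A and 63.7, 72.4 and 59.3 CPM in TRAP control (-0.62, adjusted p = 0.199). GstE12 lay the other way (0.36). Of 17 tested antioxidant enzymes and genes of the CncC pathway none differed at an unadjusted p under 0.05, and their median was 0.06. Catalase (Cat) read 152, 166 and 182 CPM in PARIS C571A and 144, 154 and 182 CPM in TRAP control.

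**Figure D3:**
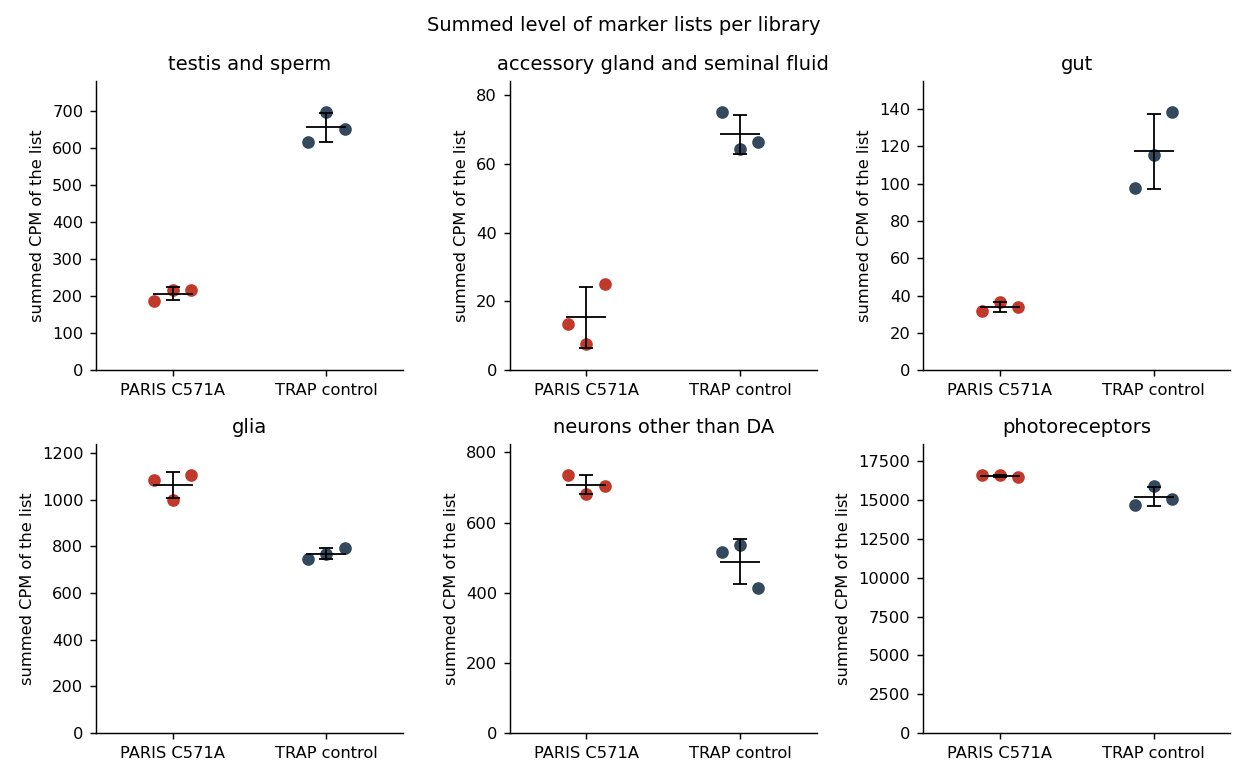
Summed CPM of 6 marker lists in each library, PARIS C571A left of TRAP control; points are libraries and bars are means with SD (n = 3). The sums of the testis, accessory gland and gut lists are lower in every PARIS C571A library, and those of the glia, other neuron and photoreceptor lists are higher.

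Markers of glia and of neurons that use other transmitters lay higher in PARIS C571A. All 9 glial markers had a positive log2 fold change (median 0.71), as did 50.5% of all tested genes. At an unadjusted p under 0.05, 3 were higher, against 4.52% of all genes, and none passed the edgeR test. DESeq2 called 3 of the 9 higher, against 1.22% of all genes it tested. The filter on low counts passed 2 of the 9 with its minimum reached in every PARIS C571A library but not in every TRAP control library. The median was 0.42 without PARIS C571A replicate 1, 0.51 without TRAP control replicate 3 and up to 0.78 in the other fits that left out a library. Their sum was 1082, 999 and 1107 CPM in PARIS C571A and 747, 768 and 792 CPM in TRAP control, and 82.1% of it in PARIS C571A was Gs2, the glutamine synthetase of glia. Gs2 read 892, 804 and 922 CPM in PARIS C571A and 626, 641 and 672 CPM in TRAP control (log2 fold change 0.43 ± 0.10 SE, edgeR adjusted p = 0.199). Gat, the glial GABA transporter, read 31.4, 23.2 and 27.9 CPM in PARIS C571A and 9.23, 9.19 and 12.9 CPM in TRAP control (1.40, adjusted p = 0.153), and alrm, a marker of astrocyte-like glia, 13.6, 18.9 and 21.8 CPM in PARIS C571A and 9.49, 7.37 and 5.94 CPM in TRAP control (1.25, adjusted p = 0.253). repo, the transcription factor that defines glia, was at 0 in TRAP control replicate 1. e and nrv2, described above, are also strong in glia in the fly brain, and the part of glial RNA in their levels was not tested.

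The 9 markers of neurons other than DA neurons summed to 737, 682 and 706 CPM in PARIS C571A and 515, 535 and 414 CPM in TRAP control. Of these, 7 had a positive log2 fold change and 2 a negative one, with a range from -1.70 to 2.26 and a median of 0.65. At an unadjusted p under 0.05, 4 were higher and none lower, against 4.52% and 5.32% of all genes. VAChT, the vesicular acetylcholine transporter, read 191, 229 and 195 CPM in PARIS C571A and 134, 138 and 89.4 CPM in TRAP control (log2 fold change 0.77, edgeR adjusted p = 0.238). Gad1, which makes GABA, read 124, 85.0 and 105 CPM in PARIS C571A and 73.5, 67.9 and 57.9 CPM in TRAP control (0.65, adjusted p = 0.292). VGlut, the vesicular glutamate transporter, read 156, 158 and 179 CPM in PARIS C571A and 122, 140 and 84.1 CPM in TRAP control (0.51, adjusted p = 0.488). TRAP control replicate 3 was the lowest library for VAChT, Gad1 and VGlut, and without it 3 markers of the list were higher at an unadjusted p under 0.05 and the median was 0.57.

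General neuronal genes were split. fne, a neuronal RNA-binding protein, read 738, 661 and 814 CPM in PARIS C571A and 539, 510 and 391 CPM in TRAP control (log2 fold change 0.62, edgeR adjusted p = 0.230). futsch, a microtubule-associated protein of axons, read 482, 453 and 434 CPM in PARIS C571A and 655, 641 and 577 CPM in TRAP control (-0.45, adjusted p = 0.199). Over 10 such markers the median was 0.21 (0.10 without PARIS C571A replicate 2). At an unadjusted p under 0.05, 2 were higher and 1 lower, against 4.52% and 5.32% of all genes. Photoreceptor genes, from cells that do not make dopamine, summed to 16608, 16646 and 16514 CPM in PARIS C571A and 14707, 15898 and 15067 CPM in TRAP control, 1.09-fold apart in the mean. Of the 15 genes 12 had a positive log2 fold change and 3 a negative one (median 0.11), and 1 was higher at an unadjusted p under 0.05. This was Arr1, an arrestin, with the highest fold change of the list, which read 951, 894 and 990 CPM in PARIS C571A and 688, 740 and 631 CPM in TRAP control (0.46, adjusted p = 0.199). The part that these cell types took in the other differences was not tested.

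Of 35 tested genes of the synaptic vesicle cycle and the active zone, 27 had a positive log2 fold change (median 0.39), where 50.5% of all genes did. At an unadjusted p under 0.05, 10 were higher, against 4.52% of all genes, and 1 was lower, and 13 had every PARIS C571A library above every TRAP control library, against 9.96% of all genes. None passed the edgeR test, and DESeq2 called 2 higher and 1 lower. The 4.52% covers genes of all levels, and in the highest of 4 equal classes by level 240 of 2497 genes were higher. Syn (synapsin, which tethers synaptic vesicles) read 203, 221 and 222 CPM in PARIS C571A and 132, 128 and 83.0 CPM in TRAP control (log2 fold change 0.91 ± 0.20 SE, adjusted p = 0.199). Snap25, a membrane fusion protein, read 288, 249 and 301 CPM in PARIS C571A and 189, 210 and 101 CPM in TRAP control (0.74, adjusted p = 0.451). Csp, a vesicle chaperone, read 76.6, 66.9 and 66.4 CPM in PARIS C571A and 51.9, 56.2 and 51.8 CPM in TRAP control (0.39, adjusted p = 0.393). Scaled over all 9 TRAP libraries, unc-13, the most abundant member, read 669, 715 and 661 CPM in PARIS C571A and 749, 875 and 669 CPM in TRAP control. On the same scale cpx read 700, 725 and 718 CPM in PARIS C571A and 553, 683 and 355 CPM in TRAP control. Vmat was the lone gene of the list that was lower at an unadjusted p under 0.05. The number higher was 4 to 9 as single libraries were left out, with 4 without PARIS C571A replicate 1 (median 0.29). TRAP control replicate 3 was low for Syn and Snap25, and without it 8 were higher and the median was 0.23. Voltage-gated channels had 3 higher and 1 lower of 26 (median -0.02, and 1 to 5 higher as single libraries were left out), among them slo, a calcium-activated potassium channel (313, 318 and 309 CPM in PARIS C571A and 257, 236 and 177 CPM in TRAP control, 0.49, adjusted p = 0.370), and transmitter-gated receptor channels none of 25 (median 0.17). Of 35 tested neuropeptide precursors 1 was higher, Nplp3 (0.43), and none lower, with a median of 0.35.

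Differences were small in genes of energy metabolism encoded in the nucleus. Of 68 tested nuclear subunits of the oxidative phosphorylation (OXPHOS) complexes, 48 had a positive log2 fold change, against 50.5% of all genes. The median was 0.20. At an unadjusted p under 0.05, 9 were higher, against 4.52% of all genes, and none lower, and none passed the test. Over all genes the share higher rose with level: 46 of 2497 in the lowest of 4 equal classes by level and 240 of 2497 in the highest. ATPsynC, the rotor ring subunit of ATP synthase, read 969, 910 and 981 CPM in PARIS C571A and 709, 703 and 710 CPM in TRAP control (log2 fold change 0.43 ± 0.09 SE, edgeR adjusted p = 0.193), although its PARIS C571A counts differ between the tables. Cyt-c-p (cytochrome c) read 212, 202 and 221 CPM in PARIS C571A and 157, 168 and 156 CPM in TRAP control (0.40, adjusted p = 0.244), and RFeSP (the Rieske protein of complex III) 112, 129 and 122 CPM in PARIS C571A and 74.3, 76.5 and 98.9 CPM in TRAP control (0.54, adjusted p = 0.313). SdhC and SdhD, membrane subunits of complex II, had log2 fold changes of 0.48 and 0.58. The abundant subunit blw had overlapping groups and a lower mean in PARIS C571A. Scaled over all 9 TRAP libraries, it read 556, 602 and 534 CPM in PARIS C571A and 618, 615 and 584 CPM in TRAP control. The number higher varied from 4 to 11 as single libraries were left out, with 4 without TRAP control replicate 1 or 2 and 11 without TRAP control replicate 3. Of 19 TCA cycle genes 3 were higher and none lower (median 0.12), and none was higher without TRAP control replicate 1, TRAP control replicate 2 or PARIS C571A replicate 2.

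The mitochondrial genome's own transcripts had a median of 1.10 over 9 tested genes, but with a wide spread. mt:CoII (cytochrome oxidase subunit 2) read 912, 742 and 956 CPM in PARIS C571A and 523, 489 and 194 CPM in TRAP control (log2 fold change 1.11 ± 0.37 SE, edgeR adjusted p = 0.391), and mt:CoI 988, 829 and 994 CPM in PARIS C571A and 582, 601 and 131 CPM in TRAP control (1.10, adjusted p = 0.594). TRAP control replicate 3 was low for both, and the list's median was 0.58 without it. The genes for mitochondrial biogenesis and for the PINK1-parkin pathway, which marks damaged mitochondria for removal, had a median of -0.02 over 15 members. Pink1 read 117, 111 and 123 CPM in PARIS C571A and 144, 133 and 146 CPM in TRAP control (-0.27 ± 0.11 SE, adjusted p = 0.495) and was the single member with an unadjusted p under 0.05. srl, the fly relative of PGC-1alpha, read 16.2, 17.9 and 14.2 CPM in PARIS C571A and 19.8, 16.1 and 15.6 CPM in TRAP control, and park (parkin) 10.4, 9.89 and 14.8 CPM in PARIS C571A and 17.7, 12.9 and 10.4 CPM in TRAP control, both with overlapping groups.

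Ribosomal and translation genes included some whose counts differ between the tables, and otherwise showed small differences. Of 83 tested cytosolic ribosomal protein genes 2 fell (RpLP1 and RpL24, at 0 as described above). At an unadjusted p under 0.05, 9 were higher and 3 lower, against 4.52% and 5.32% of all genes. In the highest of 4 equal classes of all genes by level, 240 of 2497 were higher. The median of the ribosomal list was 0.13. The number higher was 3 without TRAP control replicate 2 or PARIS C571A replicate 3, 4 without TRAP control replicate 1 or PARIS C571A replicate 1, 12 without TRAP control replicate 3 and 16 without PARIS C571A replicate 2. RpS3A read 1125, 1059 and 1140 CPM in PARIS C571A and 795, 827 and 853 CPM in TRAP control (log2 fold change 0.43 ± 0.09 SE, edgeR adjusted p = 0.194), and RpS20 176, 141 and 178 CPM in PARIS C571A and 96.2, 112 and 114 CPM in TRAP control (0.62, adjusted p = 0.204). RpL8, the most abundant member, read 1547, 1536 and 1757 CPM in PARIS C571A and 1605, 1736 and 2087 CPM in TRAP control, scaled over all 9 TRAP libraries. On that scale RpL5 read 1730, 1517 and 1687 CPM in PARIS C571A and 1470, 1558 and 1638 CPM in TRAP control. RpS7, with other PARIS C571A counts in the second table, had overlapping groups (52.96, 81.9 and 43.2 CPM in PARIS C571A and 467, 586 and 64.5 CPM in TRAP control). Of 46 translation factors 5 were higher and 1 lower (median 0.07), with 2 higher without PARIS C571A replicate 3. eEF1alpha1, the main elongation factor, read 4536, 4358 and 4743 CPM in PARIS C571A and 3844, 3584 and 3642 CPM in TRAP control (0.30, adjusted p = 0.292). None of 69 mitochondrial ribosomal proteins (median 0.23) and none of 32 proteasome subunits (median 0.11) differed at an unadjusted p under 0.05.

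Few stress, immune and cell death genes differed, and none passed the test. Of 22 heat shock genes 1 was lower at an unadjusted p under 0.05 and none higher (median -0.30): Hsc70-3, the BiP chaperone of the endoplasmic reticulum, read 161, 183 and 179 CPM in PARIS C571A and 209, 218 and 251 CPM in TRAP control (log2 fold change -0.37, edgeR adjusted p = 0.384). In the list of ER stress and secretion 3 of 17 were lower, against 5.32% of all genes, and 2 were higher. The lower ones were Hsc70-3, Cnx99A (calnexin, -0.27) and ERp60, a protein disulfide isomerase (56.7, 56.9 and 52.6 CPM in PARIS C571A and 71.9, 78.6 and 97.9 CPM in TRAP control, -0.58, adjusted p = 0.272). The higher ones were Xbp1 (0.32) and Atf6 (0.41), transcription factors of the unfolded protein response. As single libraries were left out, 1 to 3 members were lower and 0 to 2 higher, with 1 lower without PARIS C571A replicate 1 and none higher without TRAP control replicate 1 or PARIS C571A replicate 2. Of 24 antimicrobial peptides and Bomanins 1 was higher, BomS3 (0.74), and 1 lower, AttC (-1.09), and none of 10 peptidoglycan recognition genes differed (median -0.26). rpr, an inducer of apoptosis, had 25, 75 and 42 counts in PARIS C571A and 0, 0 and 0 in TRAP control, at least 10.9-fold higher without passing the test (adjusted p = 0.233). Debcl, a Bcl-2 family member, read 15.8, 16.8 and 17.3 CPM in PARIS C571A and 24.0, 26.4 and 27.6 CPM in TRAP control (-0.65, adjusted p = 0.297). Of 22 autophagy genes Atg8a alone was higher (98.0, 92.2 and 106 CPM in PARIS C571A and 77.9, 74.6 and 70.3 CPM in TRAP control, 0.41, adjusted p = 0.325) and none lower, with a median of -0.05.

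Genes of amine handling differed one by one. Of 18 receptors for dopamine, octopamine and serotonin 2 were higher and 2 lower at an unadjusted p under 0.05 (median -0.01). Of all tested genes 4.52% were higher and 5.32% lower. Dop2R, the inhibitory dopamine receptor, read 24.8, 22.4 and 20.7 CPM in PARIS C571A and 48.4, 42.6 and 27.98 CPM in TRAP control (log2 fold change -0.81 ± 0.24 SE, edgeR adjusted p = 0.338). 5-HT2A, a serotonin receptor, read 37.1, 58.3 and 59.3 CPM in PARIS C571A and 36.7, 24.5 and 29.4 CPM in TRAP control (0.77, adjusted p = 0.390), and Oamb, an octopamine receptor, 20.7, 23.4 and 13.9 CPM in PARIS C571A and 8.86, 12.7 and 8.72 CPM in TRAP control (0.94, adjusted p = 0.398). In the list of dopamine synthesis, transport and breakdown 9 members were tested, e rose, b was at 0, and Vmat had the value given above. Of 5 tested sodium-potassium pump genes nrv2 and nrv3 (0.37) were higher at an unadjusted p under 0.05 and none lower. The log2 fold change was above 0 for 2 of the 5 and below 0 for 3. Their median was -0.37, and -0.93 to 0.24 as single libraries were left out. The alpha subunit Atpalpha had overlapping groups and other counts in the second table. tim, a clock gene, read 221, 201 and 161 CPM in PARIS C571A and 308, 259 and 283 CPM in TRAP control (-0.54, adjusted p = 0.292), and 1 of 9 clock genes was higher and 1 lower.

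The study singled out 10 fly genes in other comparisons that share these PARIS C571A or TRAP control libraries, so their values are not independent evidence. None of the 10 passed the edgeR test. At an unadjusted p under 0.05, 2 were higher and 1 lower, against 4.52% and 5.32% of all genes. DESeq2 called 2 higher and 1 lower, against 1.22% and 2.75% of all genes it tested. Besides nrv2, CG8861 read 32.4, 33.6 and 32.4 CPM in PARIS C571A and 12.4, 13.3 and 6.92 CPM in TRAP control (log2 fold change 1.59 ± 0.29 SE, edgeR adjusted p = 0.159). CtsL3, a cathepsin L-like protease, was at 0 in PARIS C571A against 20, 108 and 39 counts in TRAP control, while the second table gives 36, 50 and 124 counts for the same PARIS C571A libraries. Appl, the fly amyloid precursor protein, had a log2 fold change of 0.21, Dark, the fly Apaf-1, 0.55, Hsc70-2 2.62, Porin2 -1.19, and Eaat2 (0.09), Su(z)2 (0.07) and Cyp6a16 (-0.25) lay close to 0 or were spread widely.

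Other tissues and structural groups had members in both directions. At an unadjusted p under 0.05, the threshold of the counts below, 4.52% of all tested genes were higher and 5.32% lower. Of 14 tested muscle genes 2 were higher and 2 lower at an unadjusted p under 0.05 (median 0.09): sls, a titin-like protein, read 309, 358 and 309 CPM in PARIS C571A and 582, 518 and 461 CPM in TRAP control (log2 fold change -0.68, edgeR adjusted p = 0.167), whereas Mlc2, a myosin light chain, read 142, 144 and 123 CPM in PARIS C571A and 92.6, 73.7 and 78.6 CPM in TRAP control (0.74, adjusted p = 0.171). In the fat body and yolk list 2 of 7 were higher, Obp99b (1.23) and Yp2, a yolk protein made in females (0.29), and none lower. Of 7 hemocyte genes Ppn (0.71) was higher. Odorant-binding proteins had 4 higher and 2 lower of 22, and cuticular proteins 2 higher and 1 lower of 25. Lipid synthesis and transport had 4 higher and 3 lower of 27. The vacuolar ATPase had none higher and 1 lower of 22, activity-regulated transcription factors 2 higher of 10, and tubulins none of 6. Of 15 ovary genes 1 was tested, bru1 (0.12). With no filter applied, 8 of the 10 with a count had a lower mean CPM in PARIS C571A, against 52.2% of all genes with a count.

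**Figure D4:**
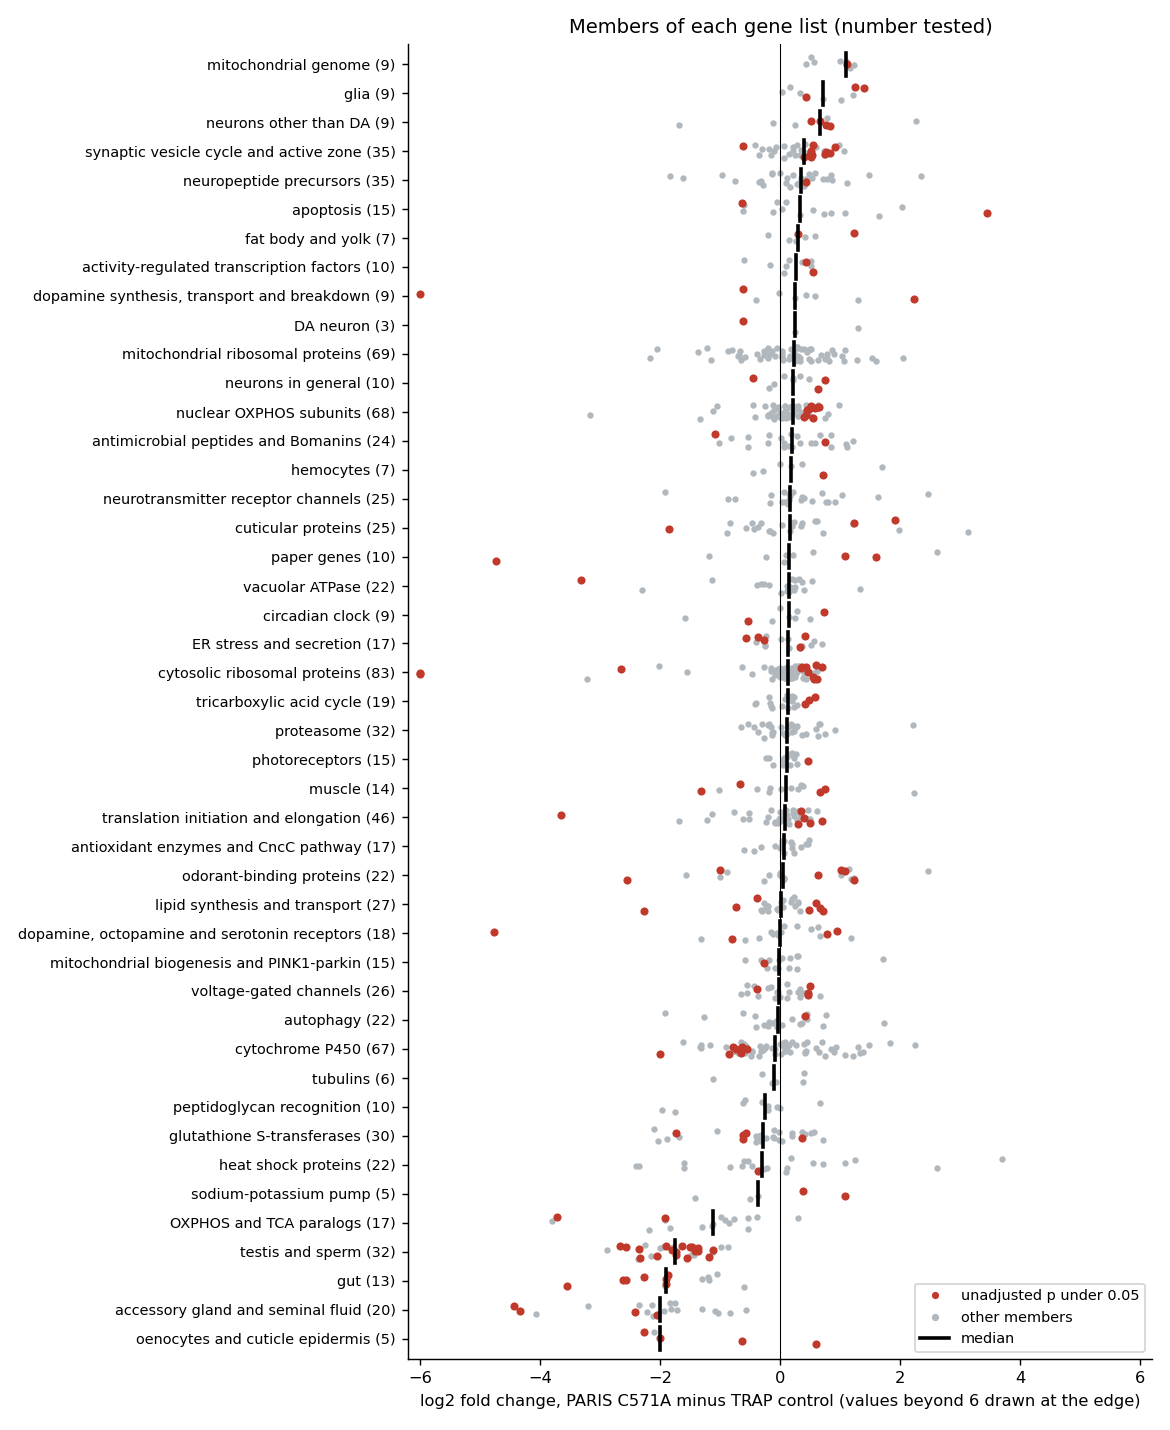
Log2 fold change of PARIS C571A over TRAP control for every tested member of each gene list, 1 strip per list, with red points for an unadjusted p under 0.05; genes at 0 in a whole group stand at their bound, and values beyond 6 are drawn at the edge. The testis, accessory gland and gut strips lie wholly below 0, where 11 of the 20 accessory gland members passed the filter on low counts with every TRAP control library but not with every PARIS C571A library, and the glia strip lies wholly above 0.

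PARIS WT was set beside the mutant for the 17 called genes, with all 9 TRAP libraries scaled together. The contrast of PARIS C571A with PARIS WT shares the PARIS C571A libraries with the calls above, and called 27 genes higher (0.257%) and 8 lower (0.0760%) of 10524, together 0.333%. Of the 17 genes 4 passed it, and 3 of these were genes that fell against TRAP control and lay lower still in PARIS WT. Cyp4g1 read 16.3, 17.7 and 18.1 in PARIS C571A, 7.11, 5.72 and 4.57 in PARIS WT and 68.9, 75.7 and 65.2 CPM in TRAP control (PARIS C571A over PARIS WT log2 fold change 1.58 ± 0.19 SE, edgeR adjusted p = 0.0178). S-Lap1 read 35.8, 41.7 and 44.9 in PARIS C571A, 3.71, 8.57 and 6.85 in PARIS WT and 139, 138 and 132 CPM in TRAP control (2.68 ± 0.28 SE, adjusted p = 0.0110). CG4836 read 43.7, 32.9 and 44.2 in PARIS C571A, 7.81, 8.65 and 10.1 in PARIS WT and 137, 148 and 158 CPM in TRAP control (2.19 ± 0.17 SE, adjusted p = 0.00197). The mutant thus stood between the other groups for these genes, with no overlap on either side.

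Mur18B had the same order, with 10.98, 13.3 and 16.8 CPM in PARIS WT, but its difference from PARIS C571A did not pass the test (log2 fold change 1.16, edgeR adjusted p = 0.133). e read 45.2, 45.8 and 39.2 in PARIS C571A, 29.0, 35.0 and 31.5 in PARIS WT and 10.8, 7.93 and 9.09 CPM in TRAP control, and the difference between the transgenes was 0.45 ± 0.17 SE (adjusted p = 0.545). The sum of the testis and sperm list was 184, 213 and 215 in PARIS C571A, 32.1, 42.0 and 44.6 in PARIS WT and 608, 691 and 647 CPM in TRAP control. The gut list summed to 31.1, 36.2 and 33.6 in PARIS C571A, 28.9, 17.3 and 18.8 in PARIS WT and 96.5, 114.6 and 137 CPM in TRAP control. PARIS WT libraries were made from 1500 heads against 500 in the other groups, so the transgene and the size of the pool cannot be told apart there. The fourth gene, RpLP1, turned with the table: PARIS C571A was lower than PARIS WT (edgeR adjusted p = 8.23e-06) in the table of the 3 groups, where PARIS C571A is at 0, and higher (adjusted p = 0.000960) in the table of these 2 groups, where PARIS WT is at 0. In that second table CG4836 (log2 fold change 2.15, adjusted p = 0.0433) also passed, while Cyp4g1 (adjusted p = 0.210) and S-Lap1 (0.0846) did not.

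**Figure D5:**
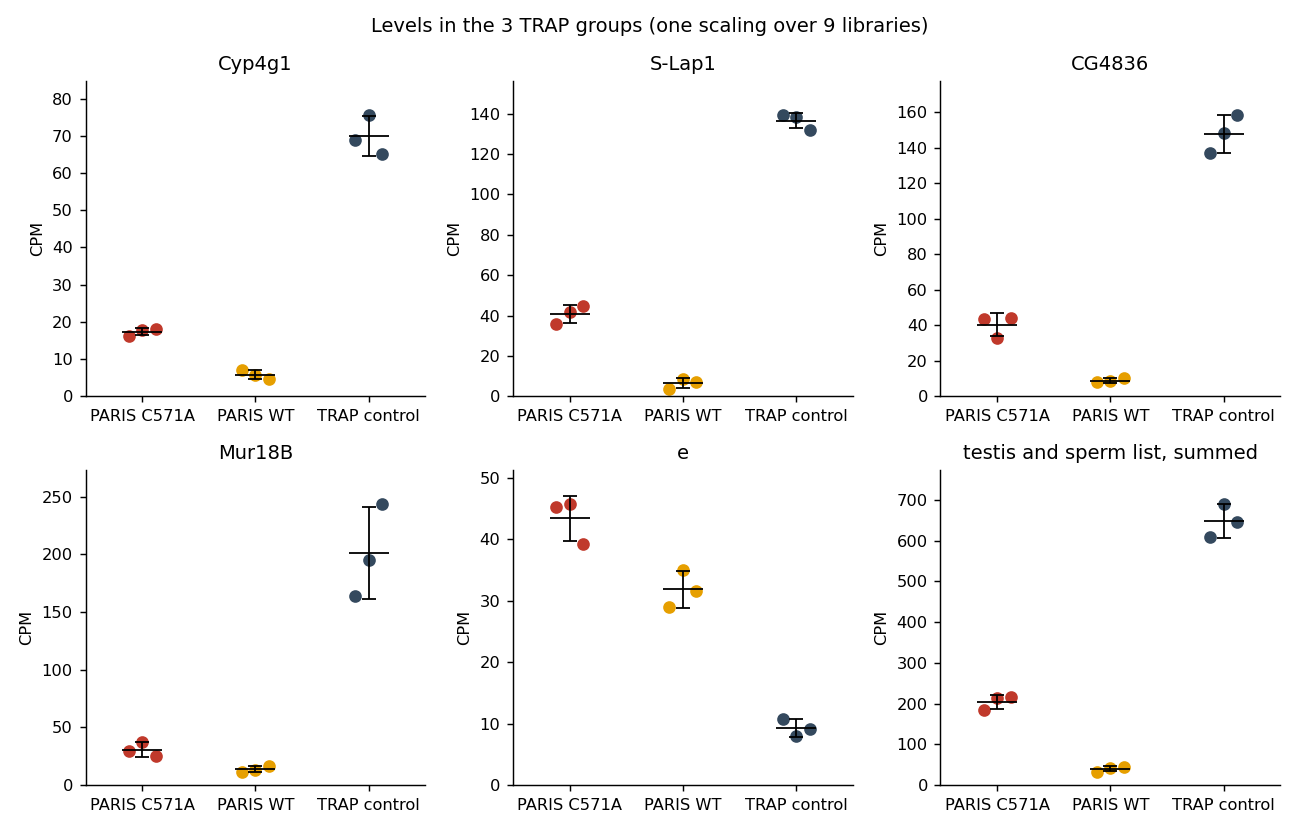
CPM of Cyp4g1, S-Lap1, CG4836, Mur18B and e and summed CPM of the testis and sperm list in PARIS C571A, PARIS WT and TRAP control, scaled over 9 libraries; points are libraries and bars are means with SD (n = 3). In the first 4 panels and the last, PARIS C571A lies between PARIS WT and TRAP control, and e is highest in PARIS C571A.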

How the data were processed

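Per the labels and the study's methods, TruSeq v2 libraries of TRAP RNA were sequenced on an Illumina HiSeq, checked with FastQC 0.11.6, aligned with HISAT2 2.1.0 to the Ensembl BDGP6 genome and assembled with StringTie 2.0, whose prepDE script gave the deposited values. The deposited values are estimated counts per gene, written by the authors as whole numbers and not normalized. StringTie divides reads among overlapping and multi-mapped genes, and this kit does not mark strand. The authors tested them with DESeq2 1.24.0.

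The table of PARIS C571A and TRAP control held 17803 rows, of which 87 named no gene and were dropped (at most 0.0209% of a library). Counts as deposited were filtered with filterByExpr (minimum count 10, minimum total count 15), scaled with TMM and tested with edgeR 4.0.16 (quasi-likelihood F-test, R 4.3.3, limma 3.58.1), p-values being adjusted by Benjamini-Hochberg over all tested genes with a threshold of 0.05. SE is the log2 fold change over the square root of F. The 3 libraries per group are taken as biological replicates as labelled. The test was tested on simulated data, where 10.5% to 13% of genes set to a log2 fold change of 2 were recovered and 0% of calls were false. The total counts per library, given with the data, set the precision: the median SE was 1.59 in the lowest of 4 equal classes of genes by level and 0.196 in the highest.

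Named genes were the 15 with the smallest p per direction past the threshold, or the next ones up to 10 where fewer passed, the called, 2 most significant and 2 most abundant members of each of 46 gene lists, the DA neuron markers and the study's own genes. Not every gene picked by this rule is given in the text. A few further members were named after their values were seen, and counts of list members without the filter were added then too. The members and lists were chosen with earlier results of these data known. Replicate numbers are shared by both groups but same-numbered libraries did not deviate together (r = -0.0299, -0.0177 and -0.0118), so they were not paired. Alternatives were RLE scaling, scaling without rRNA and mitochondrial genes, other filters, DESeq2 1.42.0, a robust fit, a replicate block, all 9 TRAP libraries, each library left out, and, added after seeing the data, the second table's counts. Gene positions are from Ensembl BDGP6.54 (17619 of 17716 identifiers found) and sequences from the RefSeq copy of the same assembly. The column of the single whole brain library was not used here. Python 3.11.15, pandas 2.3.3 and matplotlib 3.10.9 were used for summaries and plots.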

Additional observations from a re-analysis of the deposited data

Results flagged for a closer look

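Of the 17 genes called between PARIS C571A and TRAP control, 4 also differed between PARIS C571A and PARIS WT by a direct test of that difference in edgeR (all 9 TRAP libraries, 10524 genes tested). The log2 fold change of PARIS C571A over PARIS WT was 1.58 for Cyp4g1 (adjusted p = 0.0178), 2.68 for S-Lap1 (0.0110) and 2.19 for CG4836 (0.00197), and all 3 PARIS C571A libraries lay above all 3 PARIS WT libraries for each. For RpLP1 it was -16.58 (8.23e-06), a fitted value that depends on the prior count and is no measure of size, since PARIS C571A is at 0 in that table.

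A signal was also present in data outside the comparison: the table that pairs PARIS C571A with PARIS WT holds counts for 7 genes that are at 0 in the same PARIS C571A libraries of the table shared with TRAP control. The lowest count over the 3 PARIS C571A libraries there was 8327 for RpLP1, 8245 for RpL24, 1420 for b, 899 for Rab2, 605 for pnut, 162 for MCTS1 and 131 for CG2247.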

How the results depend on the processing

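Against 2 genes higher and 15 lower, RLE scaling gave 2 and 15, scaling without rRNA and mitochondrial genes 2 and 14, no filter on low counts 2 and 13, and a mean of at least 50 counts 2 and 15. DESeq2 called 135 higher and 304 lower (146 and 372 without its filters), among them all 17 genes, the robust fit 4 and 24, and all 9 libraries 5 and 17, of which 1 and 9 were among the 17. With a replicate block 0 were higher and 0 lower, with adjusted p of at least 0.523 for the 17 genes; the numbers are not known to pair the libraries. Leaving out 1 library gave 0 to 13 higher and 2 to 11 lower: 13 and 5 without TRAP control replicate 1, 1 and 2 without replicate 2 or 3, 0 and 11 without PARIS C571A replicate 2, and 0 and 4 without replicate 1 or 3.

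The choices on the second table were added after seeing the data. Without the genes whose PARIS C571A counts differ between tables, 2 were higher and 6 lower. With the second table's PARIS C571A counts, 2 were higher and 4 lower (Cyp4g1, S-Lap1, Mur18B and CG4836), and the direction turned for 3 genes: the log2 fold change of RpL24 became 0.0812, the log2 fold change of pnut 0.0356 and the log2 fold change of b 1.91. The cause was not tested. Of uncalled genes, the log2 fold change of Eaat2 ranged from -0.0607 to 0.287 and the log2 fold change of Cyp6a16 from -1.30 to 0.76 as single libraries were left out, turning sign without TRAP control replicate 3 or PARIS C571A replicate 1. In the table that pairs PARIS C571A with PARIS WT, 2 of the 17 genes differed between the transgenes in place of 4. The median SE was 1.59 in the lowest of 4 equal classes of genes by level and 0.196 in the highest. Over genes of all levels, the test recovered 10.5% of simulated log2 fold changes of 2.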

Other observations

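The small chromosome 4 had 89 tested genes, of which 10 were higher (11.2%) and 0 lower in PARIS C571A at an unadjusted p under 0.05 in edgeR, with a median log2 fold change of 0.19. Over all tested genes 4.52% were higher and 5.32% lower, and no gene of chromosome 4 passed the adjusted test. Gat, the glial GABA transporter (1.40), RpS3A (0.43), pho, a Polycomb group protein that binds DNA (1.02), and NfI, a transcription factor (0.88), were among the 10. pho read 35.5, 26.3 and 26.4 CPM in PARIS C571A and 15.8, 13.9 and 13.9 CPM in TRAP control (adjusted p = 0.198), and NfI 45.5, 66.5 and 59.7 CPM in PARIS C571A and 35.1, 33.2 and 24.7 CPM in TRAP control (adjusted p = 0.228). Of 13 tested genes of the ribosomal DNA repeat, 6 were lower and 0 higher, with a median of -0.63.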
